A study of Homo sapiens with 6 samples.

Results

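The 9 genes described here encode MYBL2 (B-MYB) and its relative MYBL1 (A-MYB), the transcription factor FOXM1, the 5 subunits of the MuvB complex (LIN9, LIN37, LIN52, LIN54 and RBBP4) and CCNF, which encodes cyclin F. They were chosen by name, found through their Ensembl identifiers in a table of 27745 genes, and all 9 passed the filter on low counts. RNA was sequenced from MDA-MB-231, a human triple-negative breast cancer cell line that lacks estrogen and progesterone receptors and has no HER2 amplification. All 6 samples came from cells infected with a lentivirus that carries a short hairpin RNA: the sh-TRC control (CTR-1 and CTR-2), sh-MIR100HG-1 (KD1-1 and KD1-2) or sh-MIR100HG-2 (KD2-1 and KD2-2), the last 2 groups directed at the long non-coding RNA MIR100HG. The model is a single established line, and the KD samples are described as biological replicates while no source says whether the controls were separate cultures, so p-values measure the spread between these samples, part of which may be technical. Each group has 2 samples, and the question is how the level of these genes differs once MIR100HG is depleted.

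MuvB is a core of proteins that changes partners through the cell cycle. In resting and G1 cells it joins the pocket proteins p130 or p107, E2F4 and DP1 to form DREAM, which represses cell cycle genes, and in S phase it joins B-MYB, after which FOXM1 is recruited and genes of G2 and mitosis are activated. LIN54 is the subunit that binds DNA, at a short element named the cell cycle genes homology region (CHR), LIN52 links the core to its partners, and RBBP4 is a histone-binding protein that also sits in several chromatin complexes. MYBL2 is itself an E2F target that is shut by DREAM in G1, CCNF is expressed in G2, and cyclin F is the substrate-binding subunit of an SCF ubiquitin ligase and also inhibits B-MYB.

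Sequences upstream of a RefSeq start of these genes are shown because DREAM and its partners act through E2F sites and CHR elements. Those printed for MYBL2, LIN54, LIN37 and LIN9 lie within the span of the counted gene, which begins farther upstream. Windows from 250 bases before to 50 bases after the RefSeq start (GRCh38.p14) were searched on both strands in 12 windows of 7 members: MYBL2, CCNF, LIN9, LIN37, LIN52, LIN54 and RBBP4. MYBL1 was left out of this search by rule and FOXM1 had no window, so the counts do not cover all members. The E2F-like letters GGCGGGA were found in all 7 genes and in 18.0% of the 27305 genes with such a window, but these letters were picked after the MYBL2 window had been read. The CHR letters TTTGAA were found in LIN9, LIN37, LIN54 and CCNF against 18.2% of genes, and the variant TTCGAA in LIN9 and CCNF against 1.82%. A gene with several windows has more chances of a match, and a match is a description of the letters and not a site shown to be used. Each sequence below was matched at a single place in the GRCh37 gene region, is given 5′ to 3′ on the gene's strand, and has the motif in capitals.
MYBL2 (chr20:42295704-42295733, plus strand, GGCGGGA): ccgacgcgcttGGCGGGAgatagaaaagtg
CCNF (chr16:2479351-2479380, plus strand, TTTGAA): gggccgggtgcgTTTGAAaactggggtggg
CCNF (chr16:2479203-2479232, plus strand, TTCGAA): cagcggccaatgTTCGAAttcgcgtcctgg
LIN54 (chr4:83932059-83932088, minus strand, TTTGAA): ggcccttgtgcgTTTGAAggttggcggggc
LIN37 (chr19:36239521-36239550, plus strand, TTTGAA): acgaagctcatcTTTGAActgtccccgcct
LIN9 (chr1:226496908-226496937, minus strand, TTCGAA): gcgagctccgcaTTCGAAcctccctcgcaa

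CCNF and LIN9 held both CHR forms. The CCNF sequence with TTCGAA also contains the letters CCAAT, the box bound by NF-Y that often stands upstream of a CHR. CCAAT was found in 4 of the 7 members (LIN37, LIN52, RBBP4 and CCNF) against 39.7% of genes. The MYB letters TAACNG were found in 3 (LIN9, LIN37 and RBBP4) against 24.3%, and the forkhead letters TGTTTAC in 0 against 4.19%.

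Total counts ranged from 43804736 to 64588388, with a median of 51553219.5. MIR100HG, the target, lay at 41.9 and 58.5 CPM (counts scaled to a common library size with TMM factors) in the controls and between 10.4 and 16.6 in the 4 knockdown samples, a log2 fold change (log2FC) of -1.86 with a standard error of 0.25. VIM, CD44, MSN and CAV1, markers of mesenchymal-like breast cancer cells, and the growth factor receptor gene EGFR were high in every sample, from 403 to 2095 CPM, and PGR had 0 counts in 5 samples and 1 count in the other. ERBB2, the gene of HER2, was not absent: it had 71.6 to 116.2 CPM across the samples, and its amplification was not tested. The epithelial keratin KRT8 was also high (710 to 1177 CPM) and EPCAM low (4.37 to 13.0 CPM), while the blood markers PTPRC and CD3E stayed below 1 CPM. CDH1, the gene of E-cadherin, was low as well, at 1.499 to 7.051 CPM. COL1A1, a fibroblast collagen, had 17.2 to 20.2 CPM in the controls and 45.5 to 78.0 in the knockdown samples, the same samples in which MYBL2 and CCNF were higher, and its part in those results was not tested. The libraries CTR-2 and KD1-1 stood apart together, although they carry different labels: 56 genes lay more than 1 log2 unit above all of the other 4 samples in both, among them MYB, and 7 lay as far below. ESR1 was also high there, at 2.38 CPM in CTR-2 and 2.79 in KD1-1 against 0.12 to 0.59 elsewhere. By the same measure KD1-2 and KD2-2 shared 17 genes above and 107 below all other samples, while the remaining pairs of samples shared 0 to 15 above and 0 to 24 below. None of the 9 members was among the genes of either pair at this distance of 1 log2 unit. By smaller gaps, CCNF (0.261 log2 units), MYBL2 (0.119) and FOXM1 (0.093) lay above all other samples in both KD1-2 and KD2-2. MYBL1 lay below them there by 0.017. No member lay wholly above or below the others in CTR-2 and KD1-1. Values without each pair of libraries are given below for the members called and for the gene lists, and each of these settings leaves 2 groups with a single sample, assumed to vary like the third group.

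Per kilobase of counted exon, MYBL2 had the highest level of the 9, with a mean of 51.0 CPM per kilobase over the 6 samples. This scale, used to compare genes, depends on which exons are annotated. Without division by length FOXM1 was first, at a mean of 145 CPM against 142 for MYBL2. Per kilobase FOXM1 followed at 29.6. The ranges of MYBL2 (27.5 to 73.3) and FOXM1 (24.1 to 34.0) overlapped, but MYBL2 was the higher in every sample, by a ratio from 1.14 to 2.16. Then came a step down, since the lowest FOXM1 value lay above the highest CCNF value of 13.3. CCNF (9.28), MYBL1 (7.54), RBBP4 (6.76) and LIN54 (6.55) had overlapping ranges and cannot be ordered by these samples. LIN52 (3.64) and LIN9 (3.20) overlapped each other and lay below every LIN54 value. LIN37 was last at 0.718, below every value of the others, with a mean of 107 counts per sample. MYBL2 stood at percentile 94.5 of all genes tested on this scale and LIN37 at percentile 25.6. Every value of MYBL2 and FOXM1 lay above every value of the 5 MuvB subunits.

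**Figure D1:**
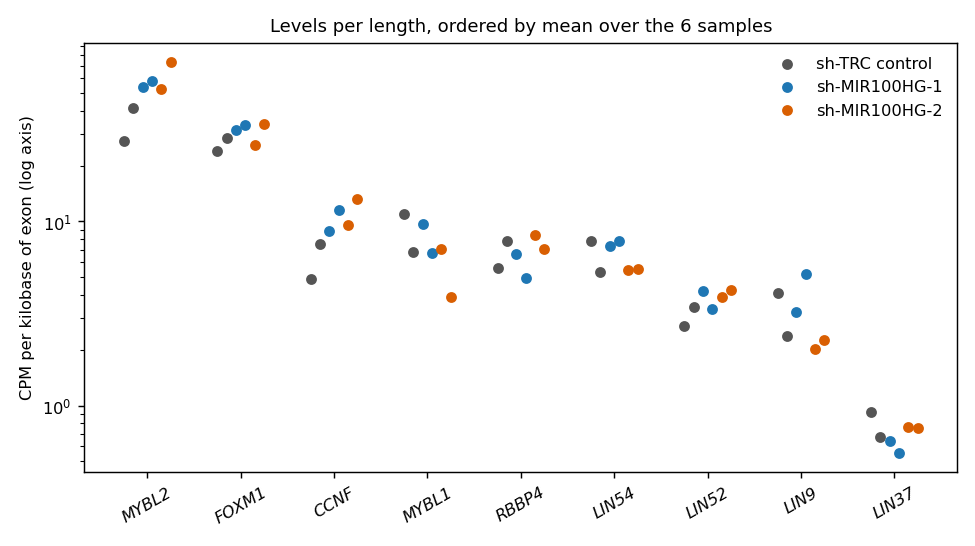
Level of each member in CPM per kilobase of counted exon (log axis), a point for each of the 6 samples, coloured by group and ordered by the mean. MYBL2 and FOXM1 stand highest, from 24.1 to 73.3, 4 members overlap in the middle, and LIN37 lies below 1 in all samples.

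Of the 9 members, 0 passed an adjusted p of 0.05 in any of 4 comparisons with edgeR's quasi-likelihood test, where 0% of the 15372 genes tested passed. DESeq2 and edgeR's likelihood ratio test also called 0 members, although DESeq2 called 130, 66, 167 and 103 genes (knockdown, sh-MIR100HG-1, sh-MIR100HG-2 and between the shRNAs) and the likelihood ratio test 109, 34, 121 and 91. At an unadjusted p under 0.05, MYBL2 and CCNF were higher in the knockdown (the mean of both shRNA groups) than in the control, 2 of 9 members where 3.23% of all genes were called in that direction and 7.68% in either. The same 2 genes were higher with sh-MIR100HG-1 (of all genes 3.1% were higher, 3.77% lower and 6.87% called either way) and with sh-MIR100HG-2 (3.71% higher, 8.86% either way). Between the shRNAs LIN9 alone was called at this level, lower with sh-MIR100HG-2, where 6.12% of genes were lower, 3.34% higher and 9.45% called either way. The comparisons with the control share the same control samples, so their counts are not independent of each other.

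**Figure D2:**
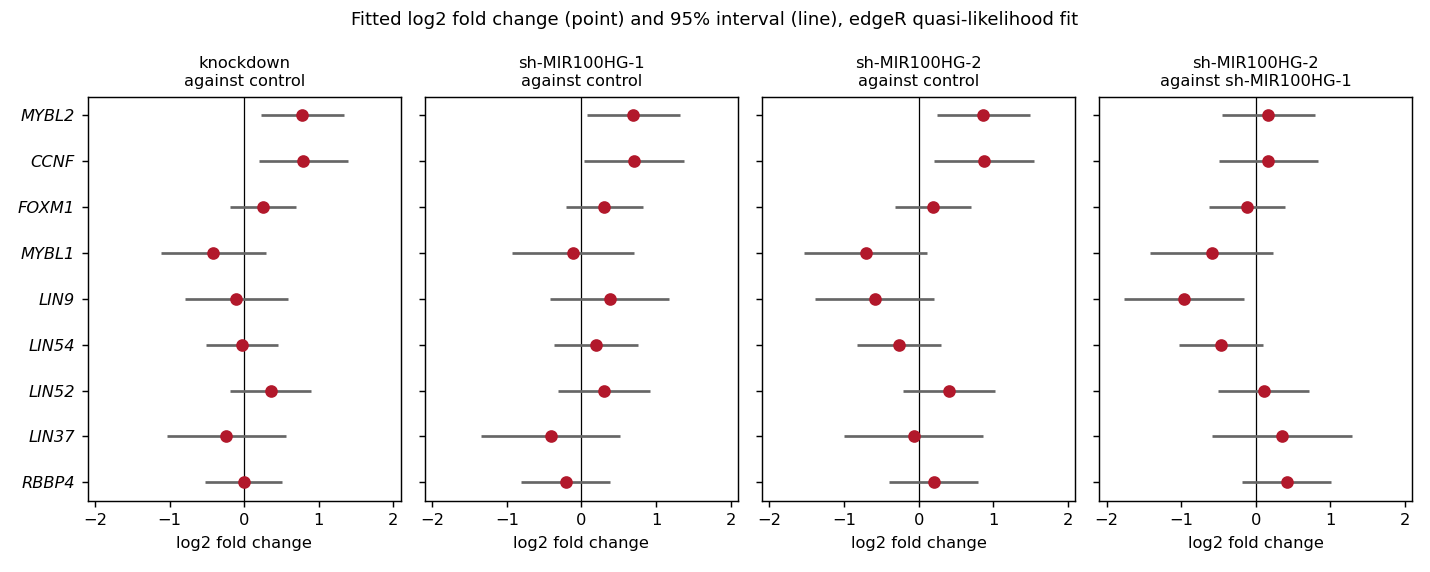
Fitted log2FC (points) with 95% intervals (lines) of the 9 members in 4 comparisons, from edgeR's quasi-likelihood fit. The intervals of MYBL2 and CCNF lie above 0 in each comparison with the control, and that of LIN9 lies below 0 between the shRNAs.

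MYBL2 (ENSG00000101057.15_1, GRCh37 chromosome 20, 42295659 to 42345136, plus strand) had 76.2 CPM in CTR-1 and 115 in CTR-2. With sh-MIR100HG-1 it had 149 and 161 CPM, and with sh-MIR100HG-2 145 and 203. All 4 knockdown samples lay above both controls, and CTR-1 was the lowest of all. Such a separation of groups, in either direction, was seen for 17.5% of all genes and for 8.4% in the upward direction. Control samples averaged 95.6 ± 27.5 CPM (SD, n = 2), those with sh-MIR100HG-1 155 ± 9.03 (SD, n = 2) and those with sh-MIR100HG-2 174 ± 41.5 (SD, n = 2). The log2FC of the knockdown was 0.78 (SE 0.24, 95% interval 0.23 to 1.34), a 1.72-fold level (unadjusted p = 0.0116, adjusted p = 0.538, edgeR quasi-likelihood). Taken alone, sh-MIR100HG-1 gave 0.70 (SE 0.27, unadjusted p = 0.0326) and sh-MIR100HG-2 gave 0.87 (SE 0.27, unadjusted p = 0.0125), and the shRNAs differed by 0.17 with an interval from -0.45 to 0.79. In bulk RNA, more cells that express a gene and more RNA per cell cannot be told apart, which holds for each gene below. Without CTR-1 the log2FC of the knockdown was 0.51 (unadjusted p = 0.106, edgeR), without CTR-2 and KD1-1 it was 1.13 (unadjusted p = 0.00900), and without KD1-2 and KD2-2 it was 0.61 (unadjusted p = 0.0456).

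CCNF (ENSG00000162063.12_2, chromosome 16, 2479395 to 2508855, plus strand) had 30.8 and 47.9 CPM in the controls, 56.0 and 72.4 with sh-MIR100HG-1, and 60.4 and 83.9 with sh-MIR100HG-2. As for MYBL2, every knockdown sample lay above both controls and CTR-1 was the lowest. The log2FC was 0.79 (SE 0.26, interval 0.19 to 1.39) for the knockdown, a 1.73-fold level (unadjusted p = 0.0155, adjusted p = 0.559, edgeR quasi-likelihood). The shRNAs gave 0.71 (unadjusted p = 0.0409) and 0.88 (unadjusted p = 0.0166). Without CTR-1 the log2FC of the knockdown was 0.51 (unadjusted p = 0.142), without CTR-2 and KD1-1 it was 1.23 (unadjusted p = 0.00713), and without KD1-2 and KD2-2 it was 0.56 (unadjusted p = 0.0538). With each shRNA taken alone, MYBL2 and CCNF also missed an unadjusted p of 0.05 without KD1-2 (log2FC 0.63 and 0.50 for sh-MIR100HG-1) or without KD2-2 (0.59 and 0.61 for sh-MIR100HG-2), and MYBL2 without KD1-1 (0.75, unadjusted p = 0.0628).

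Across samples MYBL2 and CCNF had almost the same profile. After each gene's log2 CPM was centred on its own mean, they differed by a root mean square of 0.074 log2 units over the 6 samples, while MYBL2 itself varied by 0.443 around its mean. Of 12548 other genes with a mean of at least 1 CPM, the nearest to MYBL2 were HAUS8 (0.0773), ENSG00000266088 (0.0863) and CAPN15 (0.102), so CCNF was nearer than any of these. The nearest to CCNF were TLNRD1 (0.0616), ENSG00000266088 (0.101) and HAUS8 (0.101). The ratio of CCNF to MYBL2, per kilobase, was 0.178, 0.183, 0.166, 0.198, 0.184 and 0.182 in the order CTR-1, CTR-2, KD1-1, KD1-2, KD2-1 and KD2-2. It stayed within this narrow band while each gene's own level spanned a range of 2.67-fold for MYBL2 and 2.73-fold for CCNF. The ratios here and below were chosen after the values were seen, rest on 6 samples of 3 groups and were not tested.

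**Figure D3:**
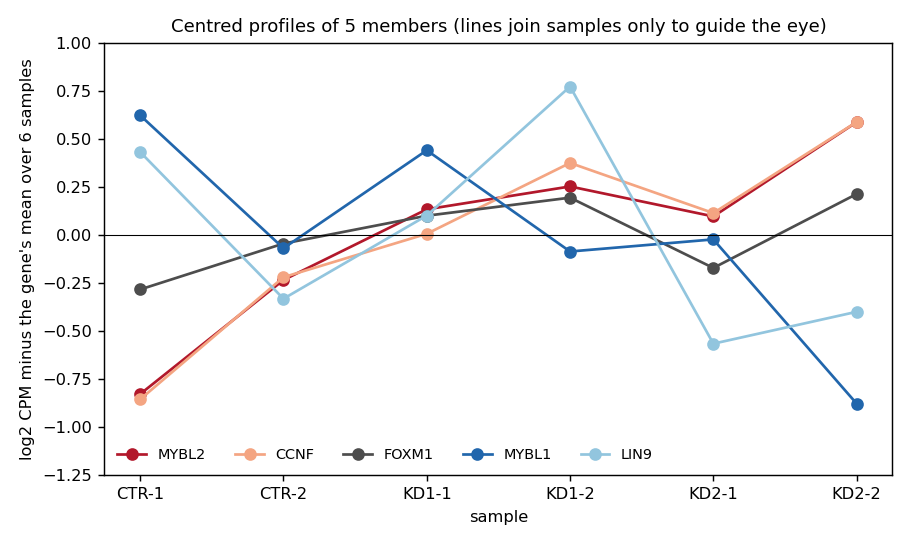
Log2 CPM of MYBL2, CCNF, FOXM1, MYBL1 and LIN9 in each sample, minus the gene's own mean over the 6 samples. MYBL2 and CCNF nearly coincide (root mean square difference 0.074), FOXM1 varies less, and MYBL1 ends at its lowest value in KD2-2.

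FOXM1 (ENSG00000111206.12_2, chromosome 12, 2966847 to 2986321, minus strand), the forkhead factor of G2 and mitosis, had 118 and 139 CPM in the controls. It had 154 and 164 CPM with sh-MIR100HG-1, both above the controls, and 127 and 166 with sh-MIR100HG-2, where KD2-1 lay between the controls. It varied least of the members, with a highest value 1.41 times the lowest. The log2FC of the knockdown was 0.25 (SE 0.20, interval -0.20 to 0.70, unadjusted p = 0.235, adjusted p = 0.806, edgeR quasi-likelihood). With sh-MIR100HG-1 alone it was 0.31 and with sh-MIR100HG-2 alone 0.19, and neither was distinguishable from 0 at this spread. The genes with the profile nearest to that of FOXM1 were PRKCE (0.0418), AGBL5 (0.0499) and HNRNPAB (0.0555). Relative to FOXM1, MYBL2 stood at a ratio of 1.14 and 1.46 in the controls, 1.70 and 1.73 with sh-MIR100HG-1, and 2.0 and 2.16 with sh-MIR100HG-2. ITFG2, on the opposite strand, shares 781 of the 4899 exon bases of FOXM1 and had 9.79 to 19.3 CPM. The strand setting of the counting is not given in the sources used here.

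MYBL1 (ENSG00000185697.16_1, chromosome 8, 67474410 to 67526482, minus strand), the relative of MYBL2 best known from meiosis in the testis, had 79.9 and 49.4 CPM in the controls, 70.4 and 48.8 with sh-MIR100HG-1, and 51.0 and 28.2 with sh-MIR100HG-2. The groups overlapped in all 4 comparisons, although KD2-2 was by far the lowest sample. The log2FC was -0.41 (SE 0.31, unadjusted p = 0.212) for the knockdown and -0.71 (SE 0.36, interval -1.53 to 0.12, unadjusted p = 0.0828) for sh-MIR100HG-2. Leaving out a sample moved the knockdown value from -0.72 without CTR-2 to -0.025 without CTR-1, and it was -0.66 (unadjusted p = 0.0410, edgeR) without KD2-1. For sh-MIR100HG-2 the range was -1.20 without KD2-1 (unadjusted p = 0.0121) to -0.32 without CTR-1, with -1.01 (unadjusted p = 0.0418) without CTR-2. Of the members, MYBL1 was farthest from MYBL2 in profile, with a root mean square difference of 0.866. The ratio of MYBL2 to MYBL1 per kilobase was 2.49 and 6.07 in the controls, 5.50 and 8.62 with sh-MIR100HG-1, and 7.40 and 18.9 with sh-MIR100HG-2, so KD1-1 lay below CTR-2 and the groups overlapped. The third gene of the family, MYB, was near background in 4 samples (12 to 28 counts) and had 239 counts in CTR-2 and 251 in KD1-1, the libraries that stood apart.

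**Figure D4:**
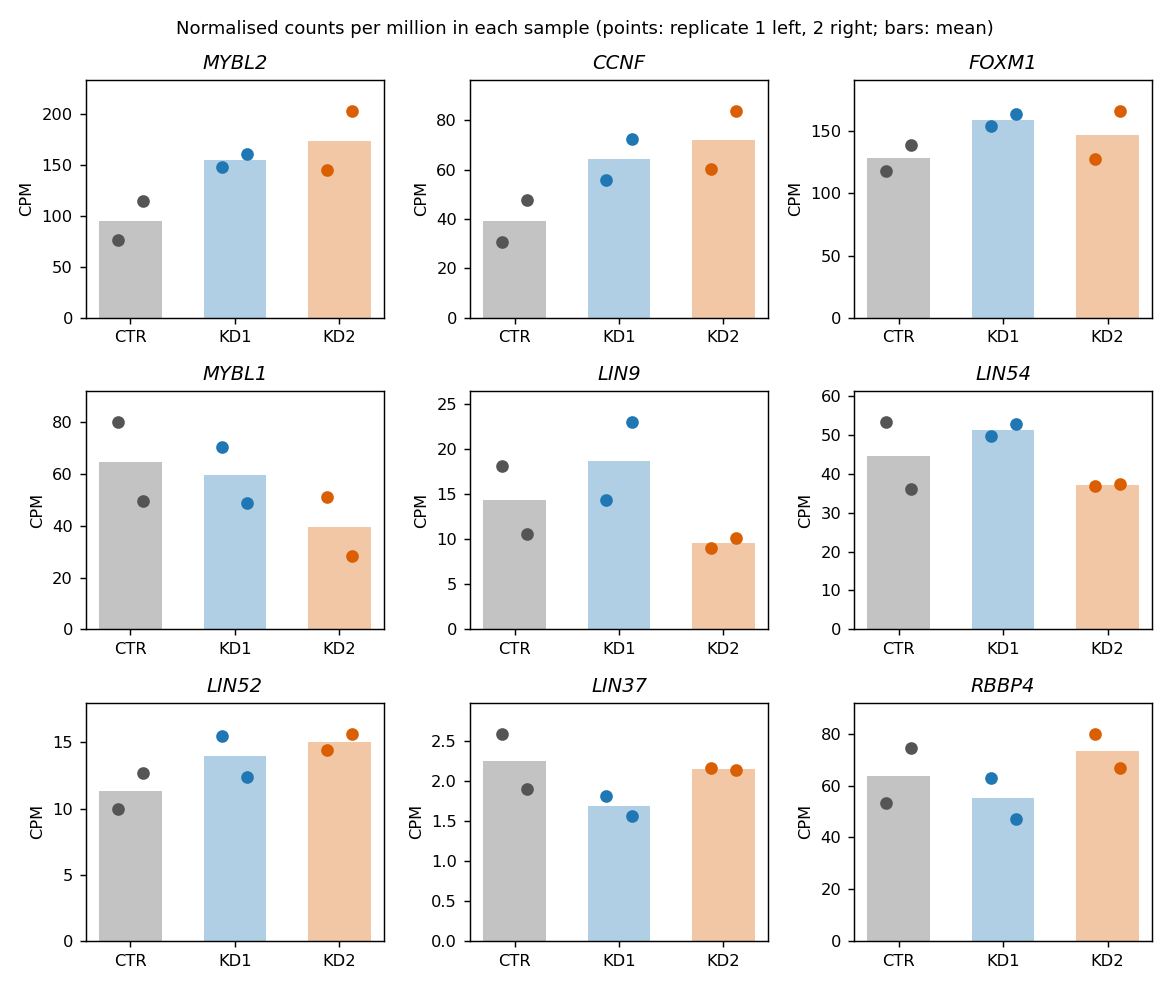
CPM of the 9 members in each sample (points, replicate 1 left and 2 right) with the group mean (bars), for the control (CTR), sh-MIR100HG-1 (KD1) and sh-MIR100HG-2 (KD2). MYBL2 and CCNF are higher in all 4 knockdown samples than in both controls, and LIN9 and LIN54 are lower in both KD2 samples than in both KD1 samples.

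The subunits of the MuvB core differed in which group was highest. LIN9 (ENSG00000183814.15_1, chromosome 1, 226418850 to 226497570, minus strand), a scaffold subunit through which B-MYB is bound, had 18.1 and 10.6 CPM in the controls, 14.4 and 23.0 with sh-MIR100HG-1, and 9.02 and 10.1 with sh-MIR100HG-2. Both KD2 samples lay below all other samples. Between the shRNAs the log2FC was -0.96 (SE 0.35, interval -1.77 to -0.16), a ratio of 0.513 (unadjusted p = 0.0240, adjusted p = 0.509, edgeR quasi-likelihood). Against the control it was -0.59 for sh-MIR100HG-2 (SE 0.35, unadjusted p = 0.130) and 0.38 for sh-MIR100HG-1 (SE 0.35, unadjusted p = 0.307), so the knockdown as a whole was at -0.10. The sh-MIR100HG-2 value was -0.92 without CTR-2 (unadjusted p = 0.0430) and -0.15 without CTR-1 (unadjusted p = 0.707). The difference between the shRNAs was -0.57 (unadjusted p = 0.197) without KD1-2, the highest sample, -0.88 (unadjusted p = 0.0779) without KD2-1, -0.67 (unadjusted p = 0.151) without KD1-2 and KD2-2, and -1.27 (unadjusted p = 0.0101) without CTR-2 and KD1-1.

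LIN54 (ENSG00000189308.10_1, chromosome 4, 83831126 to 83934079, minus strand), the subunit that reads the CHR, had 53.2 and 36.1 CPM in the controls, 49.6 and 52.9 with sh-MIR100HG-1, and 36.9 and 37.5 with sh-MIR100HG-2. The KD2 samples lay below both KD1 samples but above CTR-2. The log2FC between the shRNAs was -0.46 (SE 0.25, interval -1.02 to 0.10, unadjusted p = 0.0950). LIN54 was the member nearest to LIN9 in profile (root mean square difference 0.264), and its exons had the lowest GC content of the 9, at 39.2%. The samples differed in how levels followed GC content, from -0.187 log2 units per 10 percentage points of GC in KD1-2 to 0.197 in KD2-2. With that trend removed the LIN54 difference was -0.09, while that of LIN9 was -0.82 (unadjusted p = 0.0355).

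RBBP4 (ENSG00000162521.18_2, chromosome 1, 33116743 to 33151812, plus strand), the histone chaperone subunit, had 53.1 and 74.4 CPM in the controls, 63.0 and 47.0 with sh-MIR100HG-1, and 79.9 and 66.8 with sh-MIR100HG-2. Its KD2 values lay above both KD1 values, the opposite order to LIN9 and LIN54, with a log2FC of 0.42 (SE 0.26, interval -0.18 to 1.01, unadjusted p = 0.148). Its knockdown log2FC was -0.01, with an interval from -0.52 to 0.51. SYNC, on the opposite strand, shares 1706 of the 9470 exon bases of RBBP4 and had 1.30 to 4.04 CPM. The annotation lists 7 RBBP4 pseudogenes, 0 of them in the count table, and the treatment of reads that map to several places is not given in the sources used here. RBBP7, the close relative that replaces RBBP4 in several complexes, had 143 to 221 CPM.

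LIN52 (ENSG00000205659.10_2, chromosome 14, 74551499 to 74667938, plus strand), whose phosphorylation by DYRK1A brings p130 or p107 to MuvB, had 9.96 and 12.7 CPM in the controls, 15.5 and 12.4 with sh-MIR100HG-1, and 14.4 and 15.6 with sh-MIR100HG-2. KD1-2 lay just below CTR-2, so the knockdown and control samples overlapped, and the log2FC was 0.35 (SE 0.24, interval -0.19 to 0.89, unadjusted p = 0.170). LIN37 (ENSG00000267796.7_2, chromosome 19, 36239262 to 36245420, plus strand), which is needed for repression by DREAM, had the fewest counts, from 66 in KD1-2 to 139 in CTR-1. At 2.59 and 1.90 CPM in the controls, 1.81 and 1.56 with sh-MIR100HG-1, and 2.16 and 2.14 with sh-MIR100HG-2, its knockdown log2FC was -0.24 (SE 0.35, interval -1.04 to 0.56). The gene ENSG00000188223 on the same strand shares 752 of the 2820 exon bases of LIN37, so its reads are uncertain. An increase of the size seen for MYBL2 in the knockdown lies within the interval of LIN52 and outside those of LIN9, LIN37, LIN54 and RBBP4. The interval of MYBL2 itself, 0.225 to 1.336, overlaps all of these, so a difference between MYBL2 and the subunits is not shown.

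Counted by separation alone, 2 members lay wholly above the control in the knockdown (MYBL2 and CCNF) and 0 wholly below, against 8.4% and 9.08% of all genes. With sh-MIR100HG-1, 3 members lay wholly above the control (MYBL2, CCNF and FOXM1) and 1 below (LIN37), against 20.3% and 20.2% of all genes and 40.5% in either direction. With sh-MIR100HG-2, 3 lay above (MYBL2, CCNF and LIN52) and 1 below (LIN9), against 18.1% and 20.4%, or 38.5% in either direction. Between the shRNAs, 2 were higher with sh-MIR100HG-2 (RBBP4 and LIN37) and 2 lower (LIN9 and LIN54), against 20.6% and 23.3%, or 43.9% in either direction. With 2 samples against 2 these shares of members are near the background.

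The genes that MuvB, B-MYB and FOXM1 activate were followed in a list of 57 genes of G2 and mitosis, all of which passed the filter. The list was chosen with lower G2/M genes under sh-MIR100HG-2 already known from these data. Its shares beside those of all genes are therefore descriptive and not an independent test. In the knockdown as a whole 42 were lower and 15 higher than in the control, 0 of them at an unadjusted p under 0.05, and the median log2FC was -0.14 against -0.04 for all genes tested. With sh-MIR100HG-2, 52 of the 57 were lower than in the control, 10 of them (17.5%) at an unadjusted p under 0.05 against 5.15% of all genes in that direction, and the median was -0.30, again against -0.04 for all genes. With sh-MIR100HG-1, 39 were higher and 18 lower, the median was 0.11, and 2 (3.51%) were higher at an unadjusted p under 0.05 against 3.1% of all genes. The counts at that level moved with the libraries left out, and so did the shares of all genes. Without CTR-2 and KD1-1 the list's median was -0.093 in the knockdown, -0.319 with sh-MIR100HG-2 and 0.073 with sh-MIR100HG-1. Without KD1-2 and KD2-2 these medians were -0.185, -0.34 and 0.051. The median of all genes lay between -0.037 and -0.004 in these fits. Between the shRNAs 51 were lower with sh-MIR100HG-2, 22 (38.6%) at an unadjusted p under 0.05 against 6.12% of all genes, and 33 (57.9%) had both KD2 samples below both KD1 samples against 23.3% of all genes. The adjusted p passed 0.05 for 0 of them in edgeR's quasi-likelihood test. Set against the average control on the log2 scale, the list's median was 0.05 and -0.05 for the controls CTR-1 and CTR-2, 0.06 and 0.17 for KD1-1 and KD1-2, and -0.33 and -0.34 for KD2-1 and KD2-2. The KD2 samples were thus the low ones for the targets, while MYBL2 itself was at its highest in KD2-2 and FOXM1 lay within or above the range of the controls.

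Between the shRNAs the smallest p-values in this list were those of 4 genes of spindle and mitosis. TTK, the kinase of the spindle checkpoint, had 53.6 and 24.9 CPM in the controls, 49.3 and 56.7 with sh-MIR100HG-1, and 21.7 and 16.2 with sh-MIR100HG-2, a log2FC between the shRNAs of -1.48 (SE 0.36, unadjusted p = 0.00324). CDK1, the kinase that drives mitotic entry, had 133 and 81.4 CPM, 123 and 144, and 67.8 and 55.1 across the same groups, which gave -1.12 (SE 0.28, unadjusted p = 0.00365). KIF18A, a kinesin that aligns chromosomes, was at -1.60 (SE 0.43) and ARHGAP11A, a RhoGAP of cytokinesis, at -0.98 (SE 0.26). For these 4 genes both KD2 samples lay below all other samples, and the adjusted p of each was 0.509 in edgeR's quasi-likelihood test. Other well-known genes of the list had values near 0: CCNB1 was at -0.01, PLK1 at -0.01 and AURKA at -0.12, each with a standard error between 0.22 and 0.32, and these 3 were chosen after their values were seen. Without CTR-2 and KD1-1, 48 of the 57 were lower between the shRNAs, with a median of -0.44. Without KD1-2 and KD2-2, 55 were lower, with a median of -0.39, and with the GC trend removed 53 were lower, with a median of -0.33. The share of counts from mitochondrial genes was also lowest in the KD2 samples, the low samples for LIN9 and these targets, at 1.52% and 1.84% against 2.41% to 3.46% elsewhere, and its part in the result was not tested.

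**Figure D5:**
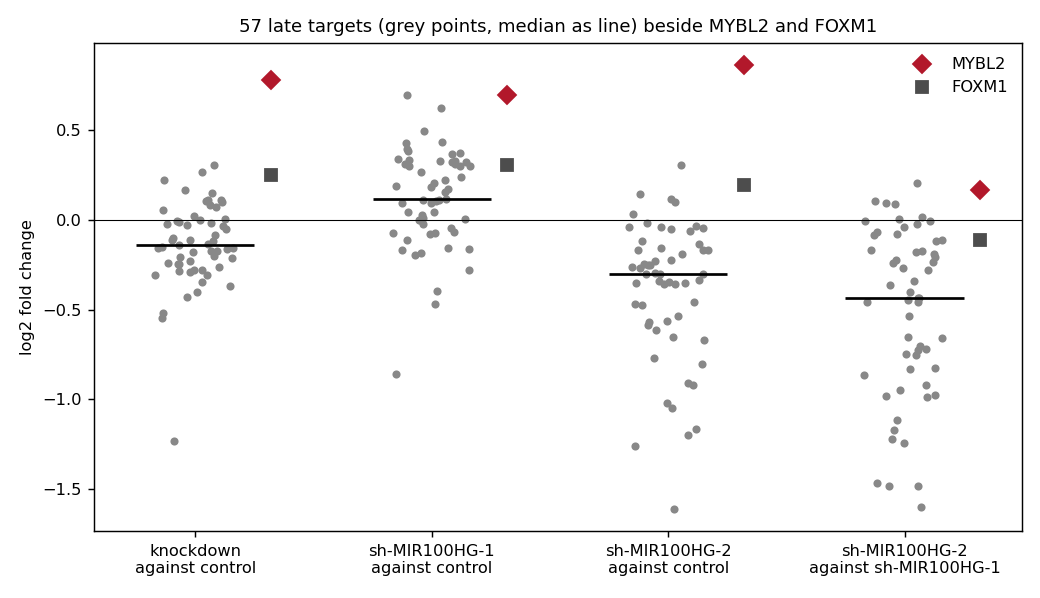
Log2FC of the 57 genes of G2 and mitosis (grey points, median as a line) in 4 comparisons, with MYBL2 (diamond) and FOXM1 (square) beside them. The median is -0.30 for sh-MIR100HG-2 against the control and -0.43 between the shRNAs, where MYBL2 stands at 0.87 and 0.17.

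The early targets that DREAM holds down through E2F sites were split more evenly between higher and lower, and this difference from the late ones was not tested. Of 25 genes of G1/S and replication, 14 were higher and 11 lower in the knockdown and also with each shRNA against the control, and between the shRNAs 10 were higher and 15 lower, with 0 at an unadjusted p under 0.05. Their median log2FC ranged from -0.04 to 0.08 over the 4 comparisons, from 0.10 to 0.21 without CTR-2 and KD1-1, and from -0.12 to 0.14 without KD1-2 and KD2-2. CDC6, the replication licensing factor, was the gene called at an unadjusted p under 0.05 in the knockdown, 4% of the 25 where 3.23% of all genes were called higher, at a log2FC of 0.61 (SE 0.26, unadjusted p = 0.0442, adjusted p = 0.642, edgeR). It had 79.9 and 63.0 CPM in the controls, 101 and 147 with sh-MIR100HG-1, and 76.2 and 115 with sh-MIR100HG-2, where KD2-1 lay between the controls. CDC6 missed an unadjusted p of 0.05 without CTR-2 and KD1-1 (0.57, unadjusted p = 0.148), without KD1-2 and KD2-2 (0.29, unadjusted p = 0.286) and with the GC trend removed (0.56, unadjusted p = 0.0558).

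Among 16 partners and regulators of DREAM, B-MYB and FOXM1, 9 were higher and 7 lower in the knockdown, 1 of them (6.25%) lower at an unadjusted p under 0.05 against 4.44% of all genes. This was RBL2, the gene of p130, with 19.8 and 30.9 CPM in the controls, 14.6 and 11.4 with sh-MIR100HG-1, and 18.5 and 14.5 with sh-MIR100HG-2. All 4 knockdown samples were below both controls, and the log2FC was -0.79 (SE 0.26, unadjusted p = 0.0138, adjusted p = 0.554, edgeR). It was -0.43 (unadjusted p = 0.199) without CTR-2 and -0.53 (unadjusted p = 0.209) without CTR-2 and KD1-1. RBL1, the gene of the related p107, was instead lower between the shRNAs, at -0.80 (SE 0.27, unadjusted p = 0.0173), with 66.6 and 65.5 CPM for sh-MIR100HG-1 and 46.3 and 29.5 for sh-MIR100HG-2. RB1, the retinoblastoma gene, was at -0.63 (SE 0.25, unadjusted p = 0.0373) in that comparison. It was higher than in the control under sh-MIR100HG-1, at 0.76 (SE 0.25, unadjusted p = 0.0165). For sh-MIR100HG-2 the RB1 value against the control was 0.13 (SE 0.25, unadjusted p = 0.614), so it was not reduced there. MYB, between the shRNAs, was at -2.93 (SE 1.18, unadjusted p = 0.0368), a value that rests on KD1-1, since KD1-2 had 28 counts. Without CTR-2 and KD1-1, RBL1 was at -0.79 (unadjusted p = 0.0620), RB1 at -0.86 (unadjusted p = 0.0254) and MYB at -1.17 (unadjusted p = 0.205). Without KD1-2 and KD2-2, RBL1 was at -0.52 (unadjusted p = 0.171) and RB1 at -0.26 (unadjusted p = 0.502), and with the GC trend removed RB1 was at -0.12 (unadjusted p = 0.576).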

How the data were processed

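Counts per gene were deposited by the authors without normalization. According to the methods, trimmed reads were mapped to GRCh37 with STAR (2.5.2a in the submitters' processing notes) and counted over the exons of each gene with FeatureCounts. The strand setting is not given in the sources used here. Groups follow the labels. A gene was dropped when 3 or more of the 6 samples had fewer than 5 counts (12373 dropped, 15372 kept). All 3 groups were fitted in a single edgeR 4.0.16 model (R 4.3.3) with TMM factors and the quasi-likelihood test, 3 residual and 5.37 prior degrees of freedom, and Benjamini-Hochberg adjustment over all genes kept. The common biological coefficient of variation was 27.8%, which exceeds the counting error of every member. The pseudocount for log2 CPM was 0.125 CPM. Symbols were found for 26966 of 27745 genes. The fit was also run on simulated counts, where the mean estimated log2FC lay near the one put in. Those counts held neither the GC trend nor the differences shared by libraries, so they do not test how the fit handles these. Alternatives were DESeq2 1.42.0, the likelihood ratio test, RLE factors, other filters, a replicate block, each sample left out, and 4 chosen after seeing the data. Members, lists and genes to name were chosen with earlier results of these data known, including lower G2/M genes with sh-MIR100HG-2. Named genes are the members, up to 4 per list and comparison (knockdown, and between shRNAs) with the smallest unadjusted p under 0.05, and the 3 nearest profiles of MYBL2, FOXM1 and CCNF.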

Additional observations from a re-analysis of the deposited data

How the results depend on the processing

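For 36 values (9 members in 4 comparisons) with 18 alternatives each, 613 kept their direction and their side of an adjusted p of 0.05, and 35 turned direction, each at an unadjusted p above 0.05. At an unadjusted p under 0.05, leaving out a sample gave 0 to 3 members for the knockdown, 0 to 2 for sh-MIR100HG-1, 0 to 4 for sh-MIR100HG-2 and 0 to 1 between the shRNAs, and the counts of 0 came without CTR-1, KD1-2 or KD2-2. A term for CTR-2 and KD1-1 gave 1 member for sh-MIR100HG-1, where 8.1% of all genes were called, against 6.87% without the term. Between the shRNAs it gave 3, where 14.5% of all genes were called, against 9.45% without the term. Omitting the filter gave 2 between the shRNAs. The share of all genes called moved with the setting, so no count in this paragraph is a result about the members alone. Leaving out KD1-2 and KD2-2 gave 1 for the knockdown and 0 in the other 3 comparisons. The replicate block gave 2 between the shRNAs, where 13.1% of all genes were called, and moved no other count beyond 1.5 times. Under the block MYBL1 was at -0.41 (unadjusted p = 0.0451, edgeR) for the knockdown, -0.73 (unadjusted p = 0.00748) for sh-MIR100HG-2 and -0.63 (unadjusted p = 0.0152) between the shRNAs. Deviations of same-numbered samples correlated at -0.213 (control and sh-MIR100HG-1), 0.022 (control and sh-MIR100HG-2) and 0.497 (between the shRNA groups). The numbers thus did not pair the control with either shRNA group, while the shRNA groups shared part of their difference between replicates.

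The knockdown value of RBBP4 was 0.012 with RLE factors and with DESeq2, 0.01 with 2 groups, 0.12 with the term, and 0.14 without CTR-2 and KD1-1. Without these 2, LIN54 for sh-MIR100HG-1 was -0.012 and CCNF between the shRNAs -0.006. Without KD1-2 and KD2-2, RBBP4 for the knockdown was 0.15, MYBL1 and LIN9 for sh-MIR100HG-1 were 0.12 and -0.003, FOXM1 for sh-MIR100HG-2 was -0.018, and MYBL2 and LIN52 between the shRNAs were -0.035 and -0.10. With the GC trend removed, MYBL2 and CCNF between the shRNAs were at -0.041 and -0.023. Leaving out a sample gave, for the knockdown, -0.44 to 0.33 for LIN9, -0.28 to 0.27 for LIN54 and -0.23 to 0.26 for RBBP4. For sh-MIR100HG-1 it gave -0.007 to 0.81 for LIN9, -0.42 to 0.27 for MYBL1, -0.055 to 0.50 for LIN54 and -0.44 to 0.05 for RBBP4. For sh-MIR100HG-2 it gave -0.017 to 0.38 for FOXM1, -0.27 to 0.17 for LIN37, -0.51 to 0.042 for LIN54 and -0.021 to 0.47 for RBBP4. Between the shRNAs it gave -0.084 to 0.39 for CCNF, -0.32 to 0.068 for FOXM1, -0.028 to 0.27 for LIN52 and -0.093 to 0.40 for MYBL2. The cause of these shifts was not tested. The lowest adjusted p of MYBL2 in the knockdown was 0.0671, without the filter, in a range up to 0.9996. With 2 samples a group, precision is set by the spread between samples, and for LIN37 also by its counts.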

Other observations

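RBBP4 belongs to chromatin complexes besides MuvB, and a list of 14 other subunits (CAF-1, PRC2, NuRD, SIN3, HAT1 and NURF) was read in the same fit. In the knockdown 10 were higher and 4 lower, with a median log2FC of 0.05 and 0 at an unadjusted p under 0.05. Between the shRNAs 3 of the 14 (21.4%) were lower with sh-MIR100HG-2 at an unadjusted p under 0.05, against 6.12% of all genes. These were HAT1, a histone acetyltransferase, at -1.04 (SE 0.34), and SUZ12 and EZH2, subunits of the PRC2 methyltransferase, at -0.97 (SE 0.33) and -0.50 (SE 0.21). With sh-MIR100HG-2 against the control, 0 of the 14 were lower at that level, against 5.15% of all genes. Means in the control, sh-MIR100HG-1 and sh-MIR100HG-2 were 86.7, 132.9 and 68.0 CPM for SUZ12 and 73.4, 95.1 and 67.3 for EZH2. HAT1 had 44.3 and 70.8 CPM with sh-MIR100HG-1 and 26.5 and 29.4 with sh-MIR100HG-2, and the controls, at 39.0 and 21.7, spanned the latter. Without KD1-2 and KD2-2, 0 of the 14 passed an unadjusted p of 0.05 between the shRNAs, and without CTR-2 and KD1-1 EZH2 did not (-0.42, unadjusted p = 0.249).

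Of 13 genes for the other subunits and the substrates of the cyclin F ligase, 9 were higher and 4 lower in the knockdown. Their median log2FC was 0.15 against -0.036 for all genes. At an unadjusted p under 0.05, 1 (7.69%) was higher, against 3.23% of all genes, and 1 (7.69%) lower, against 4.44%. The higher gene was CDC6, described above, at 0.61, and the lower was E2F2. E2F2, an activator E2F, was at -0.97 (SE 0.42, unadjusted p = 0.0479, edgeR), with 13.3 CPM in CTR-2 as its highest value and 6.44 in CTR-1, below 7.33 in KD1-1. It was -0.35 (unadjusted p = 0.516) without CTR-2, -0.75 (unadjusted p = 0.159) without CTR-2 and KD1-1, -0.64 (unadjusted p = 0.103) without KD1-2 and KD2-2 and -0.91 (unadjusted p = 0.0536) with the GC trend removed. CCP110, the centriole protein degraded through cyclin F, was at -0.89 (SE 0.31) between the shRNAs, and NUSAP1, a spindle protein, at -0.70 (SE 0.25). Both missed an unadjusted p of 0.05 without KD1-2 and KD2-2 (-0.59 for each). Means in the control, sh-MIR100HG-1 and sh-MIR100HG-2 were 29.7, 46.8 and 25.3 CPM for CCP110 and 115.8, 156.2 and 96.1 for NUSAP1.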
